A study of Mus musculus with 4 samples.

Results

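The genes described here are 38 genes of cell division: 15 that act in or just before DNA replication (S phase), 21 that act in or accumulate towards mitosis, and 2, Stmn1 and Hmgb2, that were given no phase. They were listed by name and not by a rule on their values, though earlier results of these data were known when the list was made. All 38 were found among the 27998 genes of the deposited matrices, each under 1 symbol. The data are unique molecular identifier (UMI) counts from droplet single-cell RNA sequencing of immune cells of mouse melanomas. C57BL/6 mice carried tumours of B16-GP33, a melanoma line that displays a lymphocytic choriomeningitis virus epitope, under the skin of the flank. One group had control IgG antibody (IgG), one an antibody to PD-1 (anti-PD-1), one an antibody to PSGL-1 (anti-PSGL-1) and one both antibodies (combination). Each antibody was dosed at 200 ug, on days 8, 10 and 12 after injection of the tumour cells. Live cells (PI-) that carried the leukocyte marker CD45.2 were sorted on day 18 from enzyme-digested tumours, and each group gave 1 library. The labels do not say how many mice a library pools. PD-1 and PSGL-1 are surface proteins that can restrain T cells, and the 4 libraries ask how blocking either or both alters the tumour's immune cells.

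Before it divides, a cell loads the Mcm helicase on its replication origins, makes the nucleotides it needs and copies its DNA in S phase. Cyclin B with Cdk1, the Aurora and Polo kinases and the spindle and kinetochore proteins then carry it through mitosis, after which ubiquitin-dependent destruction of cyclins returns it to G1. Many S phase genes are transcribed under E2F factors and many mitosis genes under B-Myb and FoxM1 with NF-Y, which binds the CCAAT box, through a promoter element called the cell cycle genes homology region (CHR). Tumour T cells divide after they meet antigen, whereas mature neutrophils do not divide.

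The promoter windows below are shown because S phase and mitosis genes are known for different promoter elements; the counts describe the letters found, with no test. RefSeq windows (GRCm38.p6, the build that mm10 denotes) of the 250 bases before the annotated start were at hand for 30 of the 38 members; none was used for Mcm4, Gins2, Ccne2, Ccna2, Aurkb, Tpx2, Kif20a and Stmn1. A CHR was searched as TTTGAA or TTCGAA, the CCAAT box as CCAAT, and an E2F site as TTTCCCGC, TTTCGCGC, TTTGCCGC or TTTGGCGC, all on both strands, and E2F matches on opposite strands can overlap. A CHR match stood in 8 of 17 mitosis members with a window (47.1%), in 2 of 12 S phase members (16.7%) and in 19.6% of all 27025 genes. An E2F match stood in 4 of the 12 S phase members (33.3%: Cdc6, Mcm5, Mcm6 and Mcm7), in 1 of the 17 mitosis members (5.88%: Cdk1) and in 2.16% of all genes. The CCAAT box, short and frequent, stood in 88.2% of mitosis members, 66.7% of S phase members and 37.5% of all genes. The 5 windows below are written 5′ to 3′ on the gene's strand, with E2F, CHR and CCAAT matches in capitals (ATTGG is CCAAT, and TTCAAA a CHR, on the other strand). Those of the helicase genes Mcm5 (chr8:75109259-75109508, plus strand) and Mcm6 (chr1:128359706-128359955, minus strand) carry E2F and CCAAT matches. Those of Top2a (chr11:99024190-99024439, minus strand), Mki67 (chr7:135716380-135716629, minus strand) and Ccnb2 (chr9:70421555-70421804, minus strand) carry 4, 2 and 1 CHR matches and 6, 3 and 3 CCAAT matches, and no E2F match. A match describes the letters only, and binding of a factor was not measured.
Mcm5: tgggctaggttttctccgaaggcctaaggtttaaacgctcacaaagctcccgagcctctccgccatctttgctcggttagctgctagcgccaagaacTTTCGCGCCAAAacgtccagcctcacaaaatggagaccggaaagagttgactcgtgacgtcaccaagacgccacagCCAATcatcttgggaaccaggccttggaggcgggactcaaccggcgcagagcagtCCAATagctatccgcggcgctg
Mcm6: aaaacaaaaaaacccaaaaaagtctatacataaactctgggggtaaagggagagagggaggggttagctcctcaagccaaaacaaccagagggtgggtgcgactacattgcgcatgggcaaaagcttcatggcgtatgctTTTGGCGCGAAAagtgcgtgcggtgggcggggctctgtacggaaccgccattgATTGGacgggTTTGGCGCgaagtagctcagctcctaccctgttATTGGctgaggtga
Top2a: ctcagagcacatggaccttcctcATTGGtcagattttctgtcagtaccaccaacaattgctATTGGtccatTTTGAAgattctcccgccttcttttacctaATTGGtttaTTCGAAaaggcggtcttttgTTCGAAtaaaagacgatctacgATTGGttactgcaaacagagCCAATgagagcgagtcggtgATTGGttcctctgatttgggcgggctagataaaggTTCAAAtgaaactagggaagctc
Mki67: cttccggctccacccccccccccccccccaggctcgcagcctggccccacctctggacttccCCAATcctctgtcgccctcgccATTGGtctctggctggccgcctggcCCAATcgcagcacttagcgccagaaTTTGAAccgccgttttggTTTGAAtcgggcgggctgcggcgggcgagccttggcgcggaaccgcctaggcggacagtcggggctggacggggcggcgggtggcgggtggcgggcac
Ccnb2: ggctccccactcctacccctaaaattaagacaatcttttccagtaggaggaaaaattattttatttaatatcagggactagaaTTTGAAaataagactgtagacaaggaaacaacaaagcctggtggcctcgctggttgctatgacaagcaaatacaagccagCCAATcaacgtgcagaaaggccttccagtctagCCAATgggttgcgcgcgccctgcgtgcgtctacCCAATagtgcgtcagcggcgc

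The libraries held 9733, 5621, 7302 and 4614 cell barcodes, listed from the control through the single antibodies to the combination, the order in which the groups were introduced and which every set of 4 values below keeps. After filtering, 8748, 5019, 6492 and 4228 cells were kept, with a median of 3534.5, 6244, 6106.5 and 8359 UMIs. Pairs of libraries shared 6 to 14 barcodes. The IgG library stood apart: it was the shallowest, and 36.9%, 20.5%, 26.8% and 13.4% of the kept cells fell in none of the marker gates. Cells were assigned to CD8, CD4, regulatory T, NK, macrophage and dendritic gates by UMIs of defining markers, 5 times or more those of most other lineages. Macrophages needed only more than 2 times their dendritic marker UMIs, and dendritic cells at least as many dendritic as macrophage marker UMIs. The T cell gates set no limit on NK markers. The CD8 gate held 1512, 1186, 1394 and 1748 cells, CD4 236, 77, 325 and 105, regulatory T 320, 91, 144 and 37, NK 368, 260, 260 and 178, macrophage 1910, 2098, 1853 and 1372 and dendritic 541, 166, 433 and 113. The Cd3 genes went with the gate names. They summed to 2932 to 4216 CPM (counts per 1e+06 UMIs of the gate) in the CD8 gate. Elsewhere they summed to 16.9 to 27.5 in the NK, 10.2 to 18.1 in the dendritic and 9.10 to 18.5 in the macrophage gate. NK markers summed to 158 to 304 CPM in the CD8 gate and macrophage markers to 238 to 292 CPM in the dendritic gate. In the macrophage gate monocyte markers, at 4383 to 6564 CPM, exceeded macrophage markers, at 3285 to 4345 CPM, in each library. Monocyte markers also summed to 1255.5 to 2119 CPM in the CD8 gate. Globin genes, markers of red cells, summed to 684, 4.32, 0.625 and 0 CPM in the NK gate, so the IgG NK cells also stood apart. Comparisons with IgG share that library, so its peculiarities enter each of them. Values that do not use it are the comparisons of the combination with the single antibodies.

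Of the 6 gates, cells with several division genes were most frequent in the CD8 gate, then in the regulatory T gate, and least frequent in the macrophage gate. A cell was called dividing when, after 2000 of its UMIs were drawn, it held UMIs of at least 2 different S phase members or of at least 2 different mitosis members. This gave 44.4%, 52.4%, 42.9% and 49.5% of CD8 cells, 33.8%, 33.7%, 36.5% and 25.7% of regulatory T cells and 17.8%, 21.1%, 21.0% and 19.0% of CD4 cells. In NK cells the share was 13.3%, 17.9%, 18.8% and 20.2%, in dendritic cells 11.1%, 13.4%, 14.1% and 13.3% and in macrophages 6.64%, 4.23%, 5.45% and 4.95%. Without thinning, which lets deeper cells pass more often, the shares were 59.1%, 78.4%, 67.4% and 80.7% in the CD8, 46.9%, 53.8%, 55.6% and 56.8% in the regulatory T, 26.7%, 39.0%, 36.6% and 40% in the CD4, 20.1%, 32.7%, 40.8% and 52.2% in the NK, 35.1%, 36.7%, 40.4% and 53.1% in the dendritic and 17.5%, 20.4%, 22.5% and 26.4% in the macrophage gate. CD8, regulatory T and CD4 cells kept this order in each library by the thinned share.

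B cells, neutrophils and plasmacytoid dendritic cells were measured the same way for comparison. The thinned share was 11.4%, 11.9%, 4.29% and 5.56% among 44, 42, 140 and 36 B cells, whose median depth over all cells of the gate was 1653.5, 2314, 2352 and 2717 UMIs against 4937.5, 6565, 7185 and 8401 in macrophages. No thinned neutrophil of 27, 5, 81 and 41 was called, which allows a share of up to 12.8%, 52.2%, 4.45% and 8.60%. The median over all cells of that gate was 1271, 1651, 2078 and 2143.5 UMIs. Of 196, 28, 14 and 4 plasmacytoid dendritic cells 4, 0, 1 and 0 were called, 2.04% (0.559% to 5.14%) with IgG, where their median depth of 4824.5 UMIs was near that of macrophages. With IgG the macrophage share, 6.64% (5.53% to 7.89%), lay above that of plasmacytoid dendritic cells and within the interval of the B cells, 11.4% (3.79% to 24.6%). The other macrophage shares lay within or just below the range of the B cells, whose cells were few and shallow, so at this level background and division cannot be told apart. The dendritic share with IgG also lies within that range and the other dendritic shares just above it, while those of the CD8, regulatory T, CD4 and NK gates lie above it in every library. Only the CD8 and regulatory T shares also lie above the B cell intervals in every library. The CD4 and NK shares of the IgG library lie inside its B cell interval (up to 24.6%). So do those of the anti-PD-1 library (up to 25.6%). In these libraries CD4 and NK cells cannot be told apart from B cells by this share. A stricter measure, at least 5 mitosis UMIs among the 2000, was met by no B cell (up to 8.04%, 8.41%, 2.60% and 9.74% allowed), no neutrophil and no plasmacytoid dendritic cell. It was met by 16.1%, 22.4%, 18.0% and 20.5% of CD8 cells, 11.8%, 8.43%, 14.6% and 5.71% of regulatory T cells and 4.46%, 1.41%, 7.64% and 3.81% of CD4 cells. In NK cells it was met by 1.02%, 0.397%, 6.27% and 2.81%, in dendritic cells by 1.32%, 1.22%, 6.09% and 3.54% and in macrophages by 1.23%, 0.681%, 0.890% and 0.665%. By this measure a small set of macrophages, 22 of 1792 cells with IgG and 14 of 2055 cells with anti-PD-1, carried many mitosis UMIs.

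**Figure D1:**
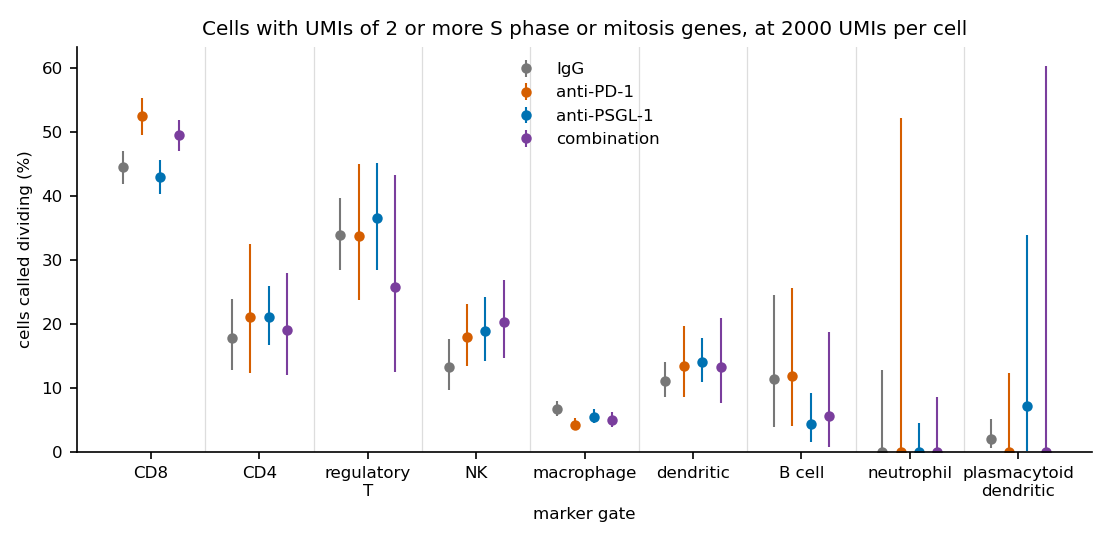
Share of cells called dividing (vertical axis, percent of cells thinned to 2000 UMIs) for each marker gate (horizontal axis) in the 4 libraries; points are libraries and bars are exact 95% binomial intervals. The CD8 points lie between 42.9% and 52.4%, above all other gates, and the macrophage points (4.23% to 6.64%) lie within or just below the range of the B cells and, with IgG, above the plasmacytoid dendritic cells.

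Among CD8 cells, which kill tumour cells that display their antigen, the share called dividing in the 4 libraries was 44.4% (41.8% to 47.0%), 52.4% (49.5% to 55.3%), 42.9% (40.2% to 45.5%) and 49.5% (47.1% to 51.8%), given with exact 95% binomial intervals. It was highest in the 2 libraries with anti-PD-1. The ratio to IgG, with a conditional 95% interval in parentheses as for all ratios below, was 1.18 (1.05 to 1.32) for anti-PD-1, 0.965 (0.861 to 1.08) for anti-PSGL-1 and 1.11 (1.00 to 1.24) for the combination. That interval suits counts of rare cells and is too wide for ratios of shares as large as these. For ratios of UMIs or CPM it is too narrow, since UMIs of 1 cell are not independent. The combination exceeded anti-PSGL-1 alone (1.15 (1.04 to 1.28)) and did not differ from anti-PD-1 alone beyond counting error (0.944 (0.850 to 1.05)). All intervals here cover counting error only, and with 1 library in each group no spread between animals is known and no test was made. With cells assigned by Leiden clusters in place of gates, the ratio for anti-PSGL-1 was 1.10, so its direction depends on the assignment. Of the called CD8 cells 32.3%, 31.4%, 33.5% and 32.7% met the call through S phase members alone, 41.2%, 48.2%, 41.6% and 46.6% through both lists and 26.5%, 20.4%, 24.9% and 20.7% through mitosis members alone. Both lists were met by a larger part of the dividing cells in the libraries with anti-PD-1 than in the others, with overlapping intervals.

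In the NK gate the ratio to IgG of the dividing share was 1.35 (0.857 to 2.12) for anti-PD-1, 1.42 (0.911 to 2.22) for anti-PSGL-1 and 1.52 (0.942 to 2.46) for the combination, and every interval includes 1. These ratios depend on the call: with 3 different genes in place of 2 they were 1.56 (0.602 to 4.18), 3.20 (1.45 to 7.80) and 3.12 (1.32 to 7.94). With a UMI of Mki67 or Top2a alone as the call they were 2.41 (1.29 to 4.68), 2.45 (1.32 to 4.75) and 2.06 (1.02 to 4.26). At 1000 UMIs the ratio for anti-PSGL-1 was 2.52 (1.26 to 5.25) and at 3000 UMIs 1.06 (0.697 to 1.65), and with Leiden clusters that for anti-PD-1 was 0.958 (0.690 to 1.33), the other side of 1. Cells with at least 5 mitosis UMIs were 3 of 294 cells, 1 of 252 cells, 16 of 255 cells and 5 of 178 cells; the anti-PSGL-1 share of 6.27% (3.63% to 9.99%) lay above that of IgG, 1.02% (0.211% to 2.95%). In the dendritic gate they were 7 of 532 cells, 2 of 164 cells, 26 of 427 cells and 4 of 113 cells, and again the anti-PSGL-1 share, 6.09% (4.02% to 8.79%), lay above that of IgG, 1.32% (0.531% to 2.69%). In the macrophage gate the share was lower than with IgG for anti-PD-1 (ratio 0.638 (0.478 to 0.848)), while the intervals for anti-PSGL-1 (0.821 (0.622 to 1.08)) and the combination (0.745 (0.544 to 1.01)) include 1. For CD4 cells the 3 ratios were 1.19 (0.603 to 2.22), 1.18 (0.774 to 1.82) and 1.07 (0.586 to 1.90), and for regulatory T cells 0.998 (0.631 to 1.53), 1.08 (0.752 to 1.53) and 0.761 (0.338 to 1.505); none differed from 1 beyond counting error. At 3 different genes in place of 2 the CD4 ratio for anti-PD-1 was 0.502, so its direction turned.

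Many dividing cells of the IgG library were in no gate. Cells called dividing but ungated numbered 654, 110, 210 and 79, beside 991, 811, 913 and 1003 in the 6 gates, and made up 29.9%, 12.8%, 14.5% and 15.8% of the thinned ungated cells. Of them 339, 14, 30 and 7 held UMIs of both T cell and macrophage markers. The IgG values of the gates therefore leave out a larger part of that library's dividing cells than those of the other libraries, and the part this has in the comparisons with IgG was not tested.

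By the mean of the 4 libraries, 32 of the 38 members had their highest CPM in the CD8 gate and 6 in the regulatory T gate, and 36 had their lowest in macrophages and 2 in dendritic cells. Mki67, a surface protein of mitotic chromosomes and the usual histological marker of proliferation (chr7:135689784-135716361, minus strand), stood at 180.1, 221, 214 and 199.9 CPM in CD8 cells. In regulatory T cells it stood at 207, 196, 242 and 254 CPM and in CD4 cells at 94.2, 29.4, 176 and 76.1 CPM. The first 2 gates overlap, whereas CD4 cells with anti-PD-1 were low, and that gate held only 77 cells. Mki67 stood at 23.6, 26.8, 162 and 73.3 CPM in NK cells, 24.9, 40.2, 70.3 and 43.6 CPM in dendritic cells and 12.1, 8.08, 9.69 and 7.21 CPM in macrophages. In both NK and dendritic cells the anti-PSGL-1 library was the highest and IgG the lowest. Top2a, the topoisomerase that untangles replicated chromosomes (chr11:98992943-99024189, minus strand), stood at 262, 349.6, 288 and 306 CPM in CD8, 223, 306, 259.8 and 232 CPM in regulatory T and 124, 36.0, 181 and 83.5 CPM in CD4 cells. It stood at 54.5, 55.4, 206 and 96.5 CPM in NK cells, 29.0, 46.8, 80.3 and 47.1 CPM in dendritic cells and 16.1, 11.2, 10.7 and 8.27 CPM in macrophages, with the same libraries on top in NK and dendritic cells as for Mki67. Pcna, the ring that holds DNA polymerase on its template (chr2:132249162-132253314, minus strand), spanned a narrower range, from 41.8 to 66.4 CPM in macrophages and from 105 to 136 CPM in CD8 cells.

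**Figure D2:**
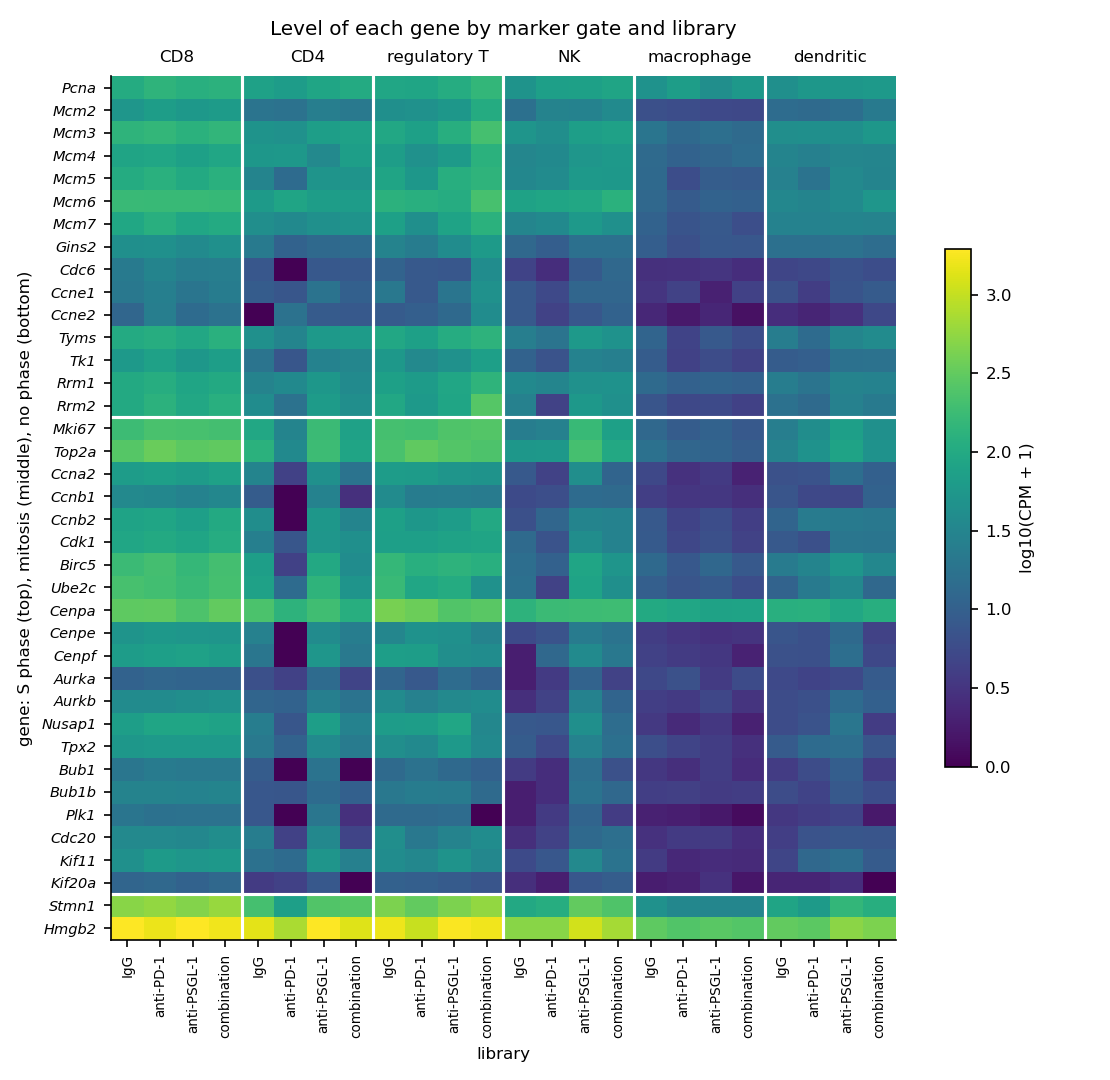
Level of the 38 members (vertical axis) in the 6 gates and, within each gate, the 4 libraries (horizontal axis), as log10 of CPM plus 1. Brighter colours are higher levels: the CD8 and regulatory T columns are brighter than the macrophage columns for nearly all members, the macrophage columns are dark except for Hmgb2, Cenpa, Pcna and Stmn1, and in the NK and dendritic columns the anti-PSGL-1 library is brighter than IgG for most mitosis members.

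In CD8 cells few members differed from IgG by 1.5-fold. With anti-PD-1, 31 of 38 had a ratio to IgG above 1, but only 1, Ccne2, was higher by 1.5-fold or more, against 2.72% of the 7016 genes with a mean of at least 10 CPM in the 2 libraries; 0 were lower, against 3.21%. With anti-PSGL-1, 15 had a ratio above 1 and 0 of 38 passed 1.5-fold either way, against 0.726% of genes higher and 0.755% lower. With the combination, 32 had a ratio above 1 and 0 of 38 passed, against 3.09% and 2.45%. The median log2 ratio of the members was 0.16, -0.06 and 0.18, beside 0.02, -0.04 and 0.04 over all genes measured. Without the IgG library, the combination against anti-PD-1 had 0 of 38 members higher (1.3% of genes) and 1, again Ccne2, lower (0.957%). Against anti-PSGL-1 it had 0 higher (3.26%) and 0 lower (3.41%), with 29 of 38 ratios above 1. The share of all genes with a ratio above 1 is not given, so the counts of such ratios describe the members only. With each cell thinned to 2000 UMIs, so that every cell weighs the same, 8 of 36 members passed 1.5-fold with anti-PD-1 (5.15% of genes under the same thinning), and 3 of 36 with the combination (5.09%).

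Ccne2, a cyclin E that drives entry into S phase (chr4:11191351-11204779, plus strand), had 11.3, 24.9, 13.2 and 16.2 CPM in CD8 cells, 104, 331, 166 and 352 UMIs. The anti-PD-1 library was the highest, 2.19 (1.75 to 2.76) times IgG, and the combination lay between, 1.43 (1.14 to 1.79) times IgG and 0.651 (0.559 to 0.759) times anti-PD-1. Its partner Ccne1 stood at 20.1, 25.7, 18.0 and 23.1 CPM, also highest with anti-PD-1 (1.28 (1.07 to 1.54) times IgG). Ccne2 overlaps Ints8 on the opposite strand over 5622 bases, and whether the counting used strand is not given in the sources used here.

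Among the origin licensing members, the 6 helicase genes Mcm2 to Mcm7 had ratios to IgG of 0.966 (Mcm6) to 1.34 (Mcm7) with anti-PD-1. Mcm7 stood at 89.5, 119.6, 88.0 and 102 CPM (1.34 (1.23 to 1.45) times IgG with anti-PD-1), and Mcm6 at 169, 163, 164 and 159.8 CPM, level in all 4 libraries. Cdc6, which loads the helicase, stood at 21.7, 29.9, 24.1 and 24.7 CPM and Gins2, a part of the active helicase, at 42.3, 44.3, 36.1 and 43.9 CPM. Of these, Cdc6 was highest with anti-PD-1 and Gins2 lowest with anti-PSGL-1. Pcna stood at 105, 136, 118 and 129.8 CPM, above IgG in each treated library, by 1.29 (1.19 to 1.40) under anti-PD-1 and 1.23 (1.15 to 1.33) under the combination. The nucleotide enzymes Tyms, Tk1, Rrm1 and Rrm2, which make thymidylate and deoxyribonucleotides, were each lowest with anti-PSGL-1. Rrm2 stood at 98.9, 130.1, 92.7 and 118 CPM and Rrm1, the partner subunit, at 99.5, 111, 85.2 and 99.3 CPM, and Rrm1 with anti-PSGL-1 was 0.856 (0.783 to 0.936) times IgG.

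Among the mitosis members in CD8 cells, Top2a was above IgG with anti-PD-1, by 1.33 (1.27 to 1.40), with anti-PSGL-1, by 1.10 (1.04 to 1.16), and with the combination, by 1.17. Mki67 was 1.19 (1.12 to 1.27) times IgG with anti-PSGL-1, and Nusap1, which bundles spindle microtubules, stood at 69.1, 85.4, 86.0 and 78.4 CPM, 1.24 (1.13 to 1.37) times IgG with anti-PSGL-1. Both were higher in all 3 treated libraries than in IgG. Ube2c, the ubiquitin-conjugating enzyme that starts destruction of mitotic cyclins, stood at 215, 196, 169.5 and 208 CPM and was lowest with anti-PSGL-1 (0.789 (0.742 to 0.839) times IgG). Cenpa, the histone of centromeres, stood at 302, 311, 234 and 312 CPM, level in 3 libraries and lower with anti-PSGL-1 (0.773 (0.733 to 0.814)). The mitotic cyclins Ccna2, Ccnb1 and Ccnb2 and their kinase Cdk1 had ratios to IgG of 0.817 to 1.23 over the 3 comparisons. The kinases Aurka, Aurkb, Plk1, Bub1 and Bub1b, the anaphase activator Cdc20, the motors Kif11, Kif20a and Cenpe, the kinetochore protein Cenpf, the spindle factor Tpx2 and Birc5, a part of the chromosomal passenger complex, had ratios between 0.889 and 1.38. Of the members with no phase, Stmn1, which destabilises microtubules, stood at 515, 574, 486 and 609 CPM, 1.18 (1.14 to 1.22) times IgG with the combination. Hmgb2, a DNA-bending chromatin protein, stood at 1949.8, 1557, 1958 and 1666 CPM. Hmgb2 was lower than IgG in both libraries with anti-PD-1, at 0.799 (0.783 to 0.815) times its level alone and 0.855 (0.839 to 0.870) times with the combination.

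**Figure D3:**
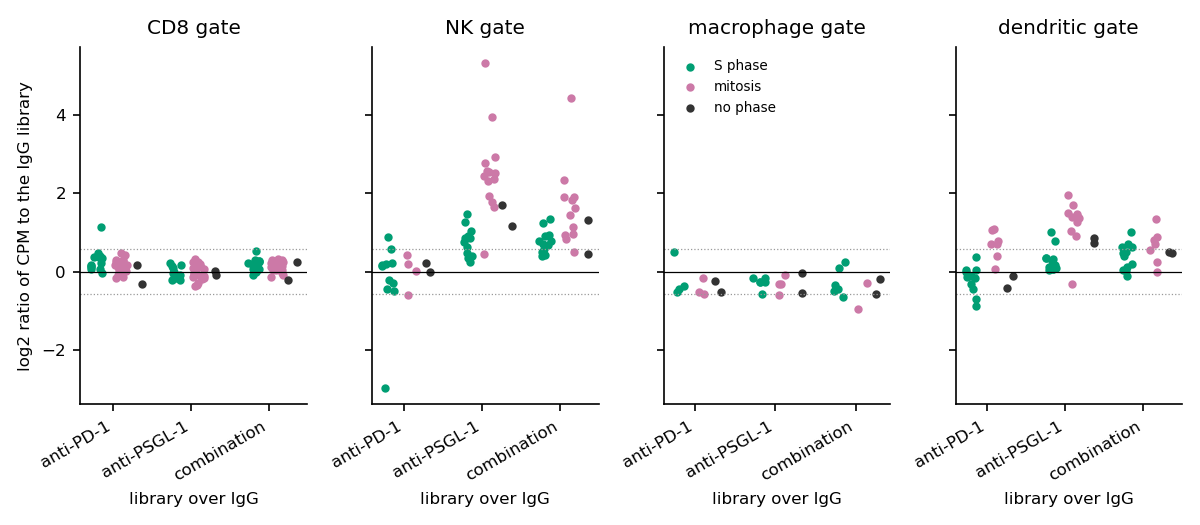
Ratio of each member's CPM to IgG (log2, one axis) in the CD8, NK, macrophage and dendritic gates for the 3 treated libraries; points are members with a mean of at least 10 CPM in the 2 libraries, S phase in green, mitosis in pink and no phase in dark, and dotted lines mark 1.5-fold. In the CD8 gate 1 point, Ccne2 with anti-PD-1, lies outside the lines, while in the NK gate most pink points for anti-PSGL-1 lie well above them.

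In the NK gate the members were higher with anti-PSGL-1 and with the combination than with IgG, and the mitosis members by more than the S phase members. That order of the phases depends on doublet removal. With likely doublets kept, the S phase part of S phase plus mitosis UMIs differed from IgG by -2.49 points with anti-PSGL-1, in place of -20.0. For the combination the difference turned from -6.65 to 4.24 points. Over all 21 mitosis members, with no minimum, the summed level was 306, 350.3, 1101 and 668 CPM, and over all 15 S phase members 415, 412, 663 and 693 CPM. IgG and anti-PD-1 were close in both sums. The minimum of 10 CPM on the mean of the 2 libraries was passed by 17, 28 and 26 of the 38 members in the comparisons with IgG, in the order of the libraries. Members near 0 in IgG passed only where the treated library was high, so the counts that follow describe them and support nothing. With anti-PSGL-1, 23 of 28 were higher by 1.5-fold or more, against 8.01% of 6955 genes, and 0 lower, against 10.9%. The 23 were 8 of 12 S phase members, 13 of 14 mitosis members and both with no phase. With the combination, 20 of 26 were higher (8.71% of genes) and 0 lower (13.8%). With anti-PD-1, 1 of 17, Mcm2, was higher (6.36%) and 2, Rrm2 and Birc5, were lower (8.33%). Without the IgG library, the combination against anti-PD-1 had 18 of 25 members higher (8.91%) and 0 lower (12.2%). Against anti-PSGL-1 it had 0 of 33 higher (6.35%) and 12 lower (8.79%), 11 of them mitosis members and the other Hmgb2.

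Mki67 in NK cells was 6.86 (4.57 to 10.7) times IgG with anti-PSGL-1, 3.103 (2.00 to 4.97) times with the combination and 1.14 (0.652 to 1.99) times with anti-PD-1. Top2a was 3.79 (2.87 to 5.07), 1.77 (1.30 to 2.44) and 1.02 (0.703 to 1.47) times IgG in the same order. For both genes the summed level with anti-PD-1 did not differ from IgG beyond counting error. The share of thinned cells with a UMI was higher with anti-PD-1, 3.97% against 1.02% for Mki67 and 9.52% against 4.76% for Top2a. With a UMI of either gene as the call, the ratio given above also exceeded 1, so level and share of cells did not go together. Cenpf, a large kinetochore protein of G2 and mitosis, had 1, 14, 58 and 28 UMIs, or 0.909, 12.1, 36.3 and 19.7 CPM; its ratio for anti-PSGL-1, 39.9 (6.89 to 1604), rests on the 1 UMI in IgG. Aurkb, the kinase that corrects spindle attachment, had 2, 4, 45 and 15 UMIs and a ratio of 15.5 (4.05 to 132) for anti-PSGL-1. Their IgG counts are too low to fix the size of these ratios. Ccnb2 stood at 5.45, 11.2, 29.4 and 27.5 CPM and Birc5 at 14.5, 9.51, 85.1 and 51.4 CPM, with ratios for the combination of 5.04 (2.12 to 14.6) and 3.54 (2.04 to 6.51). Birc5 was lowest with anti-PD-1, whereas Ccnb2 was lowest with IgG. Of the S phase members, Pcna stood at 48.2, 71.8, 73.8 and 82.5 CPM and was above IgG in all 3 treated libraries, by 1.49 (1.04 to 2.15), 1.53 (1.10 to 2.16) and 1.71 (1.23 to 2.42). Rrm2 stood at 27.3, 3.46, 55.7 and 44.4 CPM, and the anti-PD-1 library, with 4 UMIs against 30 in IgG, was far the lowest (0.127 (0.0325 to 0.360)). Mcm2 stood at 15.4, 28.5, 28.1 and 36.6 CPM, 1.85 (1.00 to 3.54) times IgG with anti-PD-1, and Mcm3 at 50.9, 41.5, 70.0 and 76.1 CPM (0.816 (0.543 to 1.22)). Cenpa stood at 132, 176, 178 and 185 CPM, 1.34 (1.08 to 1.67) times IgG with anti-PD-1, and Hmgb2 at 513, 513, 1152 and 701 CPM, with anti-PSGL-1 the highest.

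Few cells carried the NK values. The 5 cells with the most mitosis UMIs held 42.7%, 31.4%, 41.4% and 48.5% of the gate's mitosis UMIs, beside 4.78%, 3.96%, 4.62% and 3.20% in the CD8 gate. Cells with at least 10 mitosis UMIs numbered 2, 4, 19 and 10 in the NK gate. Without the 5 cells with the most member UMIs of each library, 19 of 22 members past the minimum were higher by 1.5-fold or more with anti-PSGL-1 (8.58% of genes) and 15 of 19 with the combination (8.62%). With each cell thinned to 2000 UMIs the counts were 15 of 22 (12%) and 7 of 16 (14.6%). With likely doublets kept, the members lower with anti-PD-1 went from 2 of 17 to 17 of 27 (8.94% of genes), so this count depends on doublet removal.

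Dendritic cells, which take up antigen and present it to T cells, showed a like order on fewer members. The mitosis members summed to 285, 368, 509.5 and 363 CPM and the S phase members to 313, 286, 374 and 409.6 CPM, so anti-PSGL-1 was the highest for mitosis and the combination for S phase. With anti-PSGL-1, 14 of the 25 members past the minimum were higher by 1.5-fold or more (2.85% of genes) and 0 lower (2.84%): 10 of 11 mitosis members, 2 of 12 S phase members (Tk1 and Rrm2), Stmn1 and Hmgb2. Some members, such as Nusap1 at 4.83 CPM with IgG and 18.8 with anti-PSGL-1, passed the minimum only through the treated library. These counts and those that follow therefore describe the members and support nothing. With the combination 8 of 21 were higher (6.42%) and 0 lower (4.24%). With anti-PD-1, 5 of 20, all mitosis members, were higher (7.29%) and 2, Mcm5 and Tyms, lower (4.51%). Without the IgG library, the combination against anti-PD-1 had 10 of 21 higher (9.06%) and 1, Ube2c, lower (8.38%). Against anti-PSGL-1 it had 0 of 26 higher (8.47%) and 8, all mitosis members, lower (5.7%).

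Mki67 in dendritic cells was 2.83 (2.26 to 3.56) times IgG under anti-PSGL-1, 1.75 (1.26 to 2.42) times under the combination and 1.62 (1.17 to 2.22) times under anti-PD-1. Nusap1 stood at 4.83, 6.00, 18.8 and 2.81 CPM, 3.88 (2.37 to 6.67) times IgG with anti-PSGL-1. Ube2c stood at 10.1, 21.6, 33.0 and 11.9 CPM, 3.26 (2.30 to 4.70) times with anti-PSGL-1 and 2.13 (1.33 to 3.41) times with anti-PD-1, and the combination was close to IgG. Cdk1, the kinase that starts mitosis, stood at 7.24, 5.40, 18.8 and 18.3 CPM, high in the 2 libraries with anti-PSGL-1 (2.52 (1.43 to 4.41) times IgG with the combination). Ccnb2 stood at 10.6, 22.2, 21.7 and 19.7 CPM, above IgG in each treated library (2.09 (1.31 to 3.31) with anti-PD-1). The S phase enzyme Tyms stood at 24.1, 13.2, 30.3 and 37.2 CPM, and anti-PD-1 was the lowest (0.547 (0.328 to 0.874)). Mcm5 stood at 27.3, 16.8, 34.5 and 29.5 CPM, also lowest with anti-PD-1 (0.616 (0.392 to 0.939)). Cenpa stood at 117, 122, 94.2 and 115 CPM, lower with anti-PSGL-1 (0.806 (0.707 to 0.919)), the opposite way to the other mitosis members measured in that comparison. Stmn1 stood at 82.5, 61.8, 151 and 116 CPM and Hmgb2 at 314, 290.4, 517 and 436 CPM; both were lowest with anti-PD-1. Gins2 stood at 15.2, 15.6, 16.4 and 14.1 CPM, within counting error in all libraries. Here too few cells weigh much: 5 cells held 19.8%, 54.8%, 18.8% and 41.8% of the mitosis UMIs, and without the 5 cells with the most member UMIs the members higher numbered 0 of 16 under anti-PD-1 (7.36% of genes), 9 of 20 under anti-PSGL-1 (2.82%) and 1 of 18 with the combination (6.27%).

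In macrophages most members were near the floor, and those measured were mostly lower in treated libraries than in IgG. The minimum was passed by 9, 12 and 10 members in the 3 comparisons, of which 8, 12 and 8 had a ratio below 1. Some passed only through IgG, such as Mki67 at 12.1 CPM against 8.08 with anti-PD-1, which favours ratios below 1. The share of all genes with a ratio below 1 is not given, so these counts describe the members and support nothing. By 1.5-fold or more, 0 were higher and 1, Mki67, lower with anti-PD-1, against 6.55% and 3.5% of genes. With anti-PSGL-1, 0 were higher and 1, Top2a, lower, against 1.33% and 0.642%. With the combination, 0 were higher and 2, Mcm5 and Top2a, lower, against 3.36% and 1.34%. At a minimum of 5 CPM the members lower were 11 of 21, 2 of 20 and 10 of 19, against 4.66%, 1.14% and 2.21% of genes at that minimum; genes this low can pass it through the library where they are high. Mki67 was 0.594 (0.446 to 0.788) times IgG under the combination, 0.666 (0.512 to 0.866) under anti-PD-1 and 0.799 (0.621 to 1.03) under anti-PSGL-1. Top2a was 0.664 (0.528 to 0.834) times IgG under anti-PSGL-1 and 0.514 (0.397 to 0.664) under the combination. Stmn1 stood at 45.9, 32.1, 31.3 and 31.0 CPM, lower than IgG by a like factor in each treated library (0.698 (0.612 to 0.796) with anti-PD-1). Mcm5 stood at 12.3, 4.93, 8.30 and 7.86 CPM and Mcm3 at 18.0, 12.5, 14.9 and 12.9 CPM, both highest with IgG; Mcm5 was 0.637 (0.483 to 0.839) times IgG with the combination and Mcm3 0.693 (0.560 to 0.857) with anti-PD-1. Mcm4 stood at 12.6, 9.80, 11.2 and 13.5 CPM, level with IgG in the combination (1.07 (0.842 to 1.36)). Pcna went the other way, at 47.1, 66.4, 41.8 and 55.3 CPM, 1.41 (1.26 to 1.58) times IgG under anti-PD-1 and 1.17 (1.04 to 1.32) with the combination.

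The CD4 and regulatory T gates were small, 37 to 325 cells, and single cells weighed heavily, so their members are given as levels with no ratio. In CD4 cells the mitosis members summed to 865, 281, 1336 and 611 CPM and the S phase members to 494, 435, 621 and 640.4 CPM. The 5 cells with the most held 53.2%, 38.4%, 29.3% and 71.4% of the mitosis UMIs. With anti-PD-1 the mitosis members Ccnb1, Ccnb2, Cenpe, Cenpf, Bub1 and Plk1 had no UMI among 77 cells, 71 of them deep enough to thin. This allows up to 5.06% of those 71 cells to hold a UMI of each gene. It does not limit the share of cells that express the gene, since most cells with few copies give no UMI. In regulatory T cells, which restrain other T cells, the mitosis members summed to 1806, 1632, 1621 and 1464 CPM and the S phase members to 959.5, 741, 1048 and 1859.8 CPM. The combination had the highest S phase and the lowest mitosis level, on 37 cells. Rrm2 stood at 93.3, 57.6, 84.7 and 264 CPM and Ube2c at 171, 88.2, 104 and 45.0 CPM there, at opposite ends of the 4 libraries in the combination. In that gate 5 cells held 20.9%, 63.6%, 35.5% and 78.9% of the mitosis UMIs.

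The balance of the phases was measured as S phase UMIs in percent of S phase plus mitosis UMIs. A library's total depth does not enter it, but deep cells weigh more in these sums. In CD8 cells it was 39.4%, 40.4%, 38.9% and 39.4%, and no treated library differed from IgG by more than 1 percentage point: 0.962 percentage points (0.231 to 1.69) for anti-PD-1, -0.567 percentage points (-1.33 to 0.195) for anti-PSGL-1 and 0.0174 percentage points (-0.660 to 0.693) for the combination. The small difference for anti-PSGL-1 changed sign with strict gates and with a mitosis list without Mki67, Top2a, Ccna2 and Cdk1. In NK cells it was 57.6%, 54.0%, 37.6% and 50.9%, and the difference from IgG was -20.0 percentage points (-23.9 to -16.0) for anti-PSGL-1, -6.65 percentage points (-10.8 to -2.47) for the combination and -3.53 percentage points (-8.35 to 1.32) for anti-PD-1. The combination was 13.3 percentage points (10.4 to 16.2) above anti-PSGL-1. In dendritic cells it was 52.4%, 43.8%, 42.3% and 53%; the difference from IgG was -10.02 percentage points (-12.5 to -7.52) for anti-PSGL-1 and -8.60 percentage points (-12.2 to -5.00) for anti-PD-1. In these 2 gates the anti-PSGL-1 library thus held the largest part of mitosis UMIs. In macrophages it was 45.5%, 47.4%, 45.6% and 50.5%, in CD4 cells 36.3%, 60.7%, 31.7% and 51.2% and in regulatory T cells 34.7%, 31.2%, 39.3% and 56.0%. The wide spread in CD4 and regulatory T cells goes with the few cells that hold their mitosis UMIs, and the part of those cells in it was not tested. UMIs of 1 cell are not independent, so these intervals are too narrow. With each cell thinned to 2000 UMIs, which gives cells equal weight, the difference for anti-PD-1 went from -8.60 to -1.04 points in dendritic, from -3.53 to -9.48 in NK and from -3.46 to 3.33 in regulatory T cells, and for anti-PSGL-1 in dendritic cells it was -14.3 points. With strict gates, which allow no UMI of another lineage's markers, the dendritic difference for anti-PD-1 turned to 3.31 points. With likely doublets kept, the NK difference for anti-PSGL-1 was -2.49 points and that for the combination turned from -6.65 to 4.24 points.

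**Figure D4:**
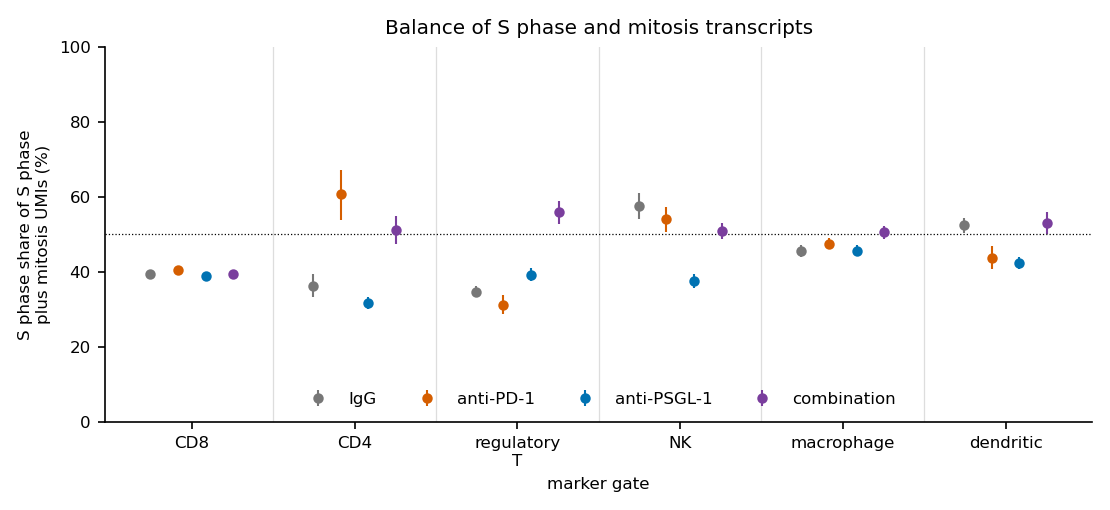
S phase UMIs in percent of S phase plus mitosis UMIs (vertical axis) by gate (horizontal axis) in the 4 libraries, with exact 95% binomial intervals that cover counting error only; the dotted line marks 50%. The 4 CD8 points lie between 38.9% and 40.4%, while the NK points run from 37.6% with anti-PSGL-1 to 57.6% with IgG and the CD4 points from 31.7% to 60.7%.

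Members differed in how far their UMIs were confined to dividing cells. For each gene the cells were called by the other members, and the share of the gene's UMIs that fell in called cells was taken over the 4 libraries together. In CD8 cells the median was 97.4% for mitosis members, from 76.2% (Cenpa) to 99.3% (Ccna2), and 90.4% for S phase members, from 79.6% (Mcm6) to 98.2% (Rrm2). In NK cells the medians were 91.4% and 68.6%, in dendritic cells 86.3% and 68.8%. In macrophages they were 63.5% and 35.4%, with 6.55% for Cenpa and 6.99% for Pcna at the low ends. Mitosis members were thus the more confined in each of these gates by their medians, with Cenpa the exception at their low end in CD8 cells and macrophages. A gate with more called cells holds more of any gene's UMIs in them, so the gates are not ranked.

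Cenpa (chr5:30666777-30674830, plus strand) in cells that were not called stood at 175 CPM in the CD8, 306 in the regulatory T, 146 in the NK, 102 in the dendritic, 83.6 in the macrophage and 132 in the B cell gate. It thus had a level outside the called cells in every gate, B cells included. Pcna in cells not called stood at 58.6 CPM in the CD8, 49.8 in the NK, 51.7 in the macrophage and 33.8 in the dendritic gate, and of its macrophage UMIs 6.99% lay in called cells. Mki67, in contrast, stood at 318 CPM in called and 18.9 CPM in other CD8 cells. Most Pcna UMIs of macrophages, unlike those of CD8 cells, thus lay outside cells called dividing. With Cenpa taken off the mitosis list the share called dividing was 41.3%, 48.8%, 40.1% and 46.7% in CD8 cells and 5.58%, 3.45%, 4.73% and 4.06% in macrophages, and 24.4%, 21.7%, 31.4% and 20% in regulatory T cells, the gate that lost most. Without Cenpa the NK difference in balance between anti-PSGL-1 and IgG went from -20.0 to -28.6 points.

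**Figure D5:**
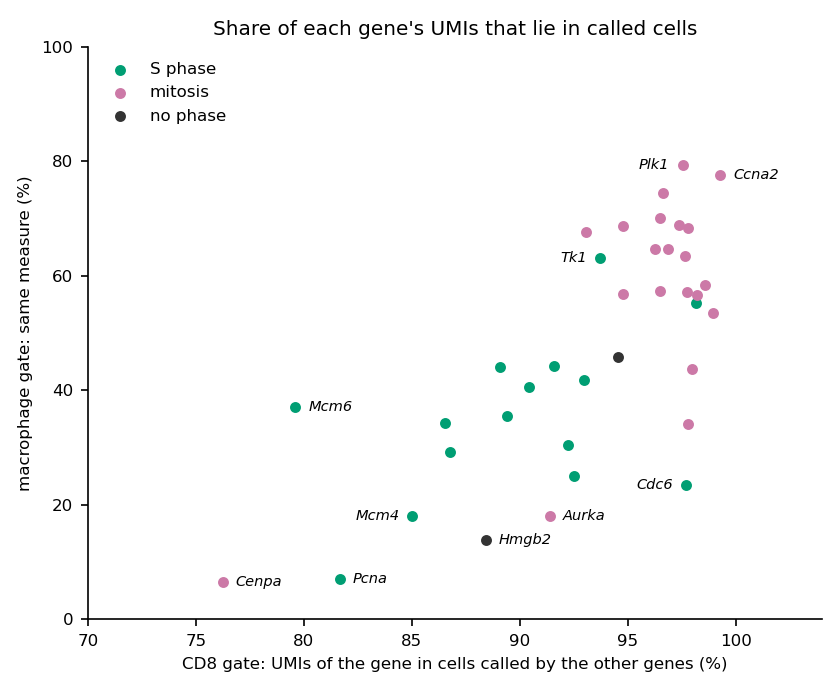
Share of each member's UMIs that lay in cells called dividing by the other members, in CD8 cells (horizontal axis, percent) and in macrophages (vertical axis, percent), over the 4 libraries together. Points are genes coloured by phase; Cenpa and Pcna lie lowest in macrophages (6.5% and 7.0%), whereas Rrm2 and Ccna2 exceed 98% in CD8 cells.

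Called and other cells also differed in readouts that the call did not use. The median depth of called CD8 cells was 8000, 13524.5, 11782 and 15201 UMIs against 3869.5, 7037, 5726 and 7803 in the others, a ratio of 1.92 to 2.07. In macrophages the ratio was 0.962 to 1.02. Called cells thus held more UMIs than other cells among CD8 cells but not among macrophages. Called macrophages did differ in markers: macrophage markers summed to 9691, 8115, 6923 and 6491 CPM against 3801, 4065, 3030 and 3456 in the others. Melanoma markers summed to 23.8, 14.5, 17.7 and 45.7 CPM against 6.88, 16.8, 6.46 and 11.9, the other way with anti-PD-1. B cell markers were higher in called macrophages in each library, at 19.6, 18.9, 8.84 and 20.5 CPM against 6.00, 2.31, 3.79 and 3.64. T cell and neutrophil markers were higher in called macrophages in some libraries and lower in others. The part of these differences in the calls was not tested. Of genes outside the 38, the tubulin Tuba1b was 7.50 to 8.65 times as high in called as in other CD8 cells, the tubulin Tubb5 4.32 to 6.62 times, the kinetochore gene Spc24 13.1 to 21.8 times and the transcription factor Mybl2, which is B-Myb, 15.1 to 41.3 times. Dut, which removes dUTP, was 2.82 to 4.06 times as high and Cdk4, the cyclin D kinase, 2.12 to 2.39 times. The quiescence genes Klf2 and Btg1 went the other way, at 0.355 to 0.682 and 0.421 to 0.510 times, as did Tob1 (0.435 to 0.614), Btg2 (0.540 to 0.608) and the Cdk inhibitor Cdkn1b (0.426 to 0.616). Cdkn1a, the Cdk inhibitor p21, was in contrast higher in called cells (1.41 to 2.16). Pttg1, which encodes securin, showed no such difference (0.908 to 1.08).

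Other lists of division genes were compared with IgG in the same way. In CD8 cells none of the genes past the minimum for DNA synthesis and nucleotides (22 measured with anti-PD-1), kinetochore and checkpoint (13), spindle and cytokinesis (16), mitotic regulators (11) or origin licensing and firing (7) passed 1.5-fold in any of the 3 comparisons. Of 12 measured genes of G1 entry, Foxm1, a factor that drives mitosis genes, passed, at 7.52, 13.4, 13.3 and 12.1 CPM, with anti-PD-1 (1.78 (1.34 to 2.38) times IgG) and with anti-PSGL-1 (1.76 (1.33 to 2.37)). Its IgG level lay below the minimum, so Foxm1 was counted only through the treated library. For the combination its mean with IgG stayed just below the minimum, so that comparison was not counted. The Foxm1 result therefore does not set the single antibodies apart from the combination. Of the inhibitors and quiescence genes, Cdkn1a stood at 60.3, 98.4, 103 and 112 CPM, higher in all 3 treated libraries. Klf2, a factor of resting and recirculating T cells, stood at 145, 61.4, 135 and 53.9 CPM, low in both libraries with anti-PD-1. Of the chromatin and tubulin genes, Tuba1b stood at 246, 558, 285 and 329.6 CPM and Hmgn2 at 252, 141, 217 and 183 CPM. Tuba1b was 2.27 (2.17 to 2.38) times IgG with anti-PD-1 in CD8, 2.18 (1.66 to 2.88) in NK, 2.44 (2.29 to 2.61) in macrophage and 2.30 (2.05 to 2.59) in dendritic cells, a like ratio in gates with many and with few dividing cells.

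In NK cells with anti-PSGL-1, genes higher by 1.5-fold or more numbered 8 of 8 measured for kinetochore and checkpoint, 9 of 9 for spindle and cytokinesis, 11 of 19 for DNA synthesis, 4 of 7 for mitotic regulators, 4 of 6 for chromatin and tubulin, 1 of 4 for origin licensing and 0 of 6 for G1 entry, against 8.01% of all genes. As among the members, genes near 0 in IgG passed the minimum only where anti-PSGL-1 was high, so these counts describe the lists and support nothing. Cdca8, a part of the chromosomal passenger complex, stood at 5.45, 6.92, 51.9 and 31.7 CPM, 9.52 (4.19 to 26.7) times IgG, and Spc24 at 11.8, 12.1, 51.3 and 30.3 CPM, 4.34 (2.40 to 8.50) times. Klf2 stood at 313, 276, 185 and 116 CPM, lowest with the combination. In dendritic cells with anti-PSGL-1 the counts were 3 of 3 for kinetochore and checkpoint, 4 of 4 for spindle and cytokinesis and 0 of 17 for DNA synthesis, against 2.85% of all genes, with the same limit. Cdca8 stood there at 13.0, 16.2, 37.5 and 23.9 CPM and Spc24 at 9.17, 13.8, 23.7 and 23.2 CPM. In macrophages no gene of the kinetochore or spindle lists passed the minimum. There the D cyclins, which drive G1, stood at 82.1, 141, 55.6 and 76.4 CPM (Ccnd1) and 50.9, 89.2, 64.3 and 81.7 CPM (Ccnd2), highest with anti-PD-1, beside Klf2 at 199, 305, 237 and 307 CPM. Dut stood at 17.6, 8.50, 14.1 and 9.50 CPM, highest with IgG, as were most members of the 38.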

How the data were processed

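The deposited files hold raw counts: unique molecular identifiers (UMIs) per gene and barcode, 1 matrix for each of 4 libraries. The authors made them with Cell Ranger 3.1.0 on mm10, per the submitters' processing notes, which also name FastQC. The gene annotation version is not given in the sources used here. Barcodes were kept from 300 genes up, if mitochondrial genes gave no more than 10% of UMIs and the total was no more than 60000. Likely doublets were removed at 0.8% per 1000 cells by similarity to simulated doublets (717, 219, 377 and 154 cells). Gates used defining marker UMIs, with at least 2 own UMIs (3 for myeloid gates) and 5 times those of most other lineages. The exceptions were macrophages against dendritic markers (more than 2 times), dendritic cells against macrophage markers (at least as many) and T cells against NK markers (no limit). These thresholds were chosen with the data in view, and the members and lists were chosen with earlier results of these data known. UMIs were summed per gate and library, as counts per 1e+06 UMIs (CPM). Genes needed a mean of 10 CPM in the 2 libraries compared, and 1.5-fold set the counts. A count of 0.5 replaced 0 in medians. Shares were taken after thinning each cell to 2000 UMIs. Intervals are exact at 95%, except that those of ratios of large shares are too wide. Those of UMIs are too narrow, since UMIs of 1 cell are not independent. Named were Mki67, Top2a, Pcna and, per gate and comparison with IgG, up to 3 members each way by the interval bound nearest to 1, with up to 2 genes each way of other lists. Promoter windows and gene overlaps came from RefSeq and GENCODE on the same build. Alternatives varied thinning, call, gate, doublet removal, gene list and minimum. Calls and ratios were tested on simulated data. Python 3.11.15, numpy 2.4.6, scipy 1.17.1, pandas 2.3.3, scikit-learn 1.9.0, leidenalg 0.10.2, igraph 0.11.9 and matplotlib 3.10.9 were used.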

Additional observations from a re-analysis of the deposited data

How the results depend on the processing

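With 1 library in each group no replicate could be left out, and no paired analysis was possible because each group holds 1 library. All values below compare treated libraries with IgG, and the reported value comes first. The cause of these shifts was not tested, except that the higher minimum leaves fewer genes to count. With a call by Mki67 or Top2a UMIs alone, the ratio of the dividing share to IgG went from 0.965 to 1.11 for anti-PSGL-1 in CD8 cells, from 1.35 to 2.41 for anti-PD-1 and from 1.42 to 2.45 for anti-PSGL-1 in NK cells, and from 1.27 to 1.97 for anti-PSGL-1 in dendritic cells. With 3 different genes for a call, it went from 1.19 to 0.502 for anti-PD-1 in CD4 cells, from 1.42 to 3.20 for anti-PSGL-1 and from 1.52 to 3.12 for the combination in NK cells, and from 0.638 to 0.376 for anti-PD-1 and from 0.745 to 0.525 for the combination in macrophages. With Leiden clusters in place of gates, it went from 1.18 to 1.43 for anti-PD-1 and from 0.965 to 1.10 for anti-PSGL-1 and from 1.11 to 1.41 for the combination in CD8 cells. With cells thinned to 1000 UMIs, it went from 1.42 to 2.52 for anti-PSGL-1 in NK cells, and from 0.638 to 0.470 for anti-PD-1 and from 0.745 to 0.533 for the combination in macrophages. With the mitosis list without Mki67, Top2a, Ccna2 and Cdk1, the S share minus that of IgG, in percentage points, went from 0.962 to 2.32 for anti-PD-1 and from -0.567 to 0.929 for anti-PSGL-1 in CD8 cells, from 4.57 to 7.81 for anti-PSGL-1 and from 21.3 to 25.1 for the combination in regulatory T cells, and from -10.02 to -5.46 for anti-PSGL-1 in dendritic cells. With strict gates, it went from -0.567 to 0.422 for anti-PSGL-1 in CD8 cells, from -4.60 to -1.05 for anti-PSGL-1 in CD4 cells, and from -3.46 to -0.0475 for anti-PD-1 and from 4.57 to 7.46 for anti-PSGL-1 in regulatory T cells. NK cells gave a change from -20.0 to -14.6 for anti-PSGL-1, from 0.0895 to -2.88 for anti-PSGL-1 in macrophages, and from -8.60 to 3.31 for anti-PD-1 and from 0.636 to 11.4 for the combination in dendritic cells. Without Cenpa, it went from -0.567 to -1.55 for anti-PSGL-1 in CD8 cells, from -4.60 to -8.52 for anti-PSGL-1 in CD4 cells, and from -20.0 to -28.6 for anti-PSGL-1 and from -6.65 to -11.5 for the combination in NK cells. Macrophages gave a change from 1.92 to 4.47 for anti-PD-1 and from 5.01 to 9.01 for the combination, and from -10.02 to -17.7 for anti-PSGL-1 in dendritic cells. With each cell thinned to 2000 UMIs, it went from -3.46 to 3.33 for anti-PD-1 in regulatory T cells, from -3.53 to -9.48 for anti-PD-1 in NK cells, and from -8.60 to -1.04 for anti-PD-1 and from -10.02 to -14.3 for anti-PSGL-1 in dendritic cells. With likely doublets kept, it went from -3.53 to 13.8 for anti-PD-1 and from -20.0 to -2.49 for anti-PSGL-1 and from -6.65 to 4.24 for the combination in NK cells, and from -8.60 to -4.77 for anti-PD-1 and from -10.02 to -6.77 for anti-PSGL-1 in dendritic cells. With strict gates, the number of members higher than IgG went from 0 to 1 for anti-PD-1 in macrophages, and from 5 to 1 for anti-PD-1 and from 8 to 15 for the combination in dendritic cells. With each cell thinned to 2000 UMIs, it went from 1 to 8 for anti-PD-1 and from 0 to 1 for anti-PSGL-1 and from 0 to 3 for the combination in CD8 cells, from 1 to 4 for anti-PD-1 and from 23 to 15 for anti-PSGL-1 and from 20 to 7 for the combination in NK cells, and from 0 to 1 for anti-PD-1 in macrophages. Dendritic cells gave a change from 5 to 3 for anti-PD-1 and from 14 to 8 for anti-PSGL-1. With likely doublets kept, it went from 1 to 2 for anti-PD-1 in NK cells, and from 5 to 1 for anti-PD-1 in dendritic cells. At a minimum of 5 CPM, it went from 1 to 4 for anti-PD-1 in NK cells, and from 8 to 13 for the combination in dendritic cells. At a minimum of 50 CPM, it went from 1 to 0 for anti-PD-1 in CD8 cells, from 1 to 0 for anti-PD-1 and from 23 to 5 for anti-PSGL-1 and from 20 to 4 for the combination in NK cells, and from 5 to 0 for anti-PD-1 and from 14 to 3 for anti-PSGL-1 and from 8 to 0 for the combination in dendritic cells. Without the 5 cells with the most member UMIs, it went from 1 to 4 for anti-PD-1 in NK cells, and from 5 to 0 for anti-PD-1 and from 14 to 9 for anti-PSGL-1 and from 8 to 1 for the combination in dendritic cells. With strict gates, the number of members lower than IgG went from 2 to 1 for anti-PD-1 in NK cells, from 1 to 2 for anti-PD-1 and from 1 to 0 for anti-PSGL-1 and from 2 to 1 for the combination in macrophages, and from 2 to 8 for anti-PD-1 in dendritic cells. With each cell thinned to 2000 UMIs, it went from 2 to 1 for anti-PD-1 in NK cells, from 1 to 0 for anti-PSGL-1 and from 2 to 1 for the combination in macrophages, and from 2 to 4 for anti-PD-1 and from 0 to 2 for the combination in dendritic cells. With likely doublets kept, it went from 2 to 17 for anti-PD-1 in NK cells, from 1 to 6 for anti-PD-1 and from 1 to 2 for anti-PSGL-1 in macrophages, and from 2 to 4 for anti-PD-1 in dendritic cells. At a minimum of 5 CPM, it went from 2 to 9 for anti-PD-1 in NK cells, from 1 to 11 for anti-PD-1 and from 1 to 2 for anti-PSGL-1 and from 2 to 10 for the combination in macrophages, and from 0 to 1 for anti-PSGL-1 in dendritic cells. At a minimum of 50 CPM, it went from 2 to 0 for anti-PD-1 in NK cells, from 1 to 0 for anti-PD-1 and from 1 to 0 for anti-PSGL-1 and from 2 to 0 for the combination in macrophages, and from 2 to 0 for anti-PD-1 in dendritic cells. Without the 5 cells with the most member UMIs, it went from 2 to 1 for anti-PD-1 in NK cells, from 1 to 2 for anti-PD-1 and from 1 to 2 for anti-PSGL-1 and from 2 to 1 for the combination in macrophages, and from 2 to 6 for anti-PD-1 and from 0 to 2 for the combination in dendritic cells. The 3 alternatives without Cenpa or without the 5 cells were chosen after seeing the data. Thinning to 3000 UMIs, strict gates, kept doublets and leaving out Cenpa moved no ratio of the dividing share beyond its interval. Depth limits the NK, CD4 and regulatory T values: the gates held 37 to 368 cells a library, and IgG NK cells had a median of 2622.5 UMIs, with 1 to 3 UMIs for several mitosis members. Intervals cover counting error alone, so none of the differences between libraries can be told apart from differences between mice, dissociations or sorts.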
